A study of Mus musculus with 9 samples.

Results

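The expression of 10 matricellular genes was described in 3 stromal populations of young mouse subcutaneous fat. The genes were taken by name from the 20655 genes of the deposited tables and comprised 4 thrombospondins (*Thbs1*, *Thbs2*, *Thbs3*, *Thbs4*), 2 tenascins (*Tnc*, *Tnxb*), 2 genes of the CCN family (*Ccn1*, *Ccn2*), periostin (*Postn*) and *Sparc*. All 10 were found and all 10 had an adjusted p-value in each of the 3 comparisons.

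The cells came from inguinal together with axillary white adipose tissue of wild-type C57BL/6 mice at 12 days of age, with males and females mixed and no treatment named in the labels. After digestion with Collagenase D and Dispase II they were sorted by FACS into DPP4+, ICAM1+ and CD142+ cells, and 3 libraries of bulk mRNA were sequenced from each population, 9 in all. DPP4 is a cell surface dipeptidyl peptidase and ICAM1 is a ligand of leukocyte integrins. CD142 is another name of tissue factor, the starter of coagulation, which is encoded by *F3*. Whether replicate libraries came from separate mice, and how many mice each pooled, is not said in the labels. The p-values therefore reflect the spread among these libraries, which may be technical. Values per library were not used here: each population is given by its fitted level in normalised counts, with a 95% interval from the deposited standard errors. In bulk libraries, fewer cells of a type and less RNA per cell cannot be told apart.

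The sorting labels were first checked against the RNA of the sorted proteins. *Dpp4* was lower in ICAM1+ than in DPP4+ cells by a log2 fold change of -5.93 ± 0.15 (SE) and lower in CD142+ than in DPP4+ cells by -2.91 ± 0.13. *F3* was higher in CD142+ than in DPP4+ cells, at 2.60 ± 0.13. *Icam1* was higher in ICAM1+ than in DPP4+ cells, at 2.78 ± 0.15, but also in CD142+ cells, at 2.60 ± 0.15, and did not differ between ICAM1+ and CD142+ cells by the test (0.17 ± 0.15, adjusted p = 0.631 by the deposited DESeq2 Wald test). The 10 stromal identity markers, among them *Pdgfra* and the collagen genes *Col1a1* and *Col3a1*, together held 18.7% of the summed level of all genes in DPP4+ cells, 14.4% in ICAM1+ cells and 21.1% in CD142+ cells. Collagen genes made up most of these sums: *Col3a1* was at 825373, 570134 and 850841, and *Pdgfra* at 2849, 3664 and 4432. The shares are thus mainly collagen shares. The 10 markers were split: 2 were higher and 7 lower in ICAM1+ than in DPP4+ cells. *Cd34* was at 13820, 3154 and 5095, and *Pdgfrb* at 753, 1937 and 1648.

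Matricellular proteins are secreted into the extracellular matrix but serve less as structural scaffold than as regulators of how cells attach, move and receive growth factor signals. Thrombospondins and tenascins are large oligomeric proteins with many binding partners, CCN proteins are small modular proteins that bind integrins and heparan sulphate, periostin cross-links collagen and tenascin-C, and SPARC binds collagen and guides its assembly into fibrils. In fat, stromal cells are among the cells that make them, and several of them are known for limiting adipocyte formation or blood vessel growth.

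Promoter sequences are shown for 4 of the genes: *Tnc* and *Thbs4*, whose levels ranged most widely between the populations, and *Ccn1* and *Tnxb*, which together with *Thbs4* were the genes with a match to a searched motif. Each line gives the 250 bases before the RefSeq start of the gene on the GRCm38.p6 build, read 5′ to 3′ on the gene's strand, with motif matches in capitals. The *Tnc* window is chr4:64047016-64047265 (minus strand), the farther upstream of its 2 windows. The *Thbs4* window is chr13:92794819-92795068 (minus strand), the *Ccn1* window chr3:145649986-145650235 (minus strand) and the *Tnxb* window chr17:34670285-34670534 (plus strand).
Tnc: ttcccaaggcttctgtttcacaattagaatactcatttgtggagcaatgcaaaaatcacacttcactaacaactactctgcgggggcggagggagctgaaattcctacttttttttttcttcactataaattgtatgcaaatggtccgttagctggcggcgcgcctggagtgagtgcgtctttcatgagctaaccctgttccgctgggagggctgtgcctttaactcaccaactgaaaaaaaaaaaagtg
Thbs4: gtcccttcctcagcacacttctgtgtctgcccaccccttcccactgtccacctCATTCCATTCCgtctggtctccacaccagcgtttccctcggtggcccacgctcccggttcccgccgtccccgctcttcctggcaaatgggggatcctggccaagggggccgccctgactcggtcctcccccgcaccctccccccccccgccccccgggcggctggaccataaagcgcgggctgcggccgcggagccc
Ccn1: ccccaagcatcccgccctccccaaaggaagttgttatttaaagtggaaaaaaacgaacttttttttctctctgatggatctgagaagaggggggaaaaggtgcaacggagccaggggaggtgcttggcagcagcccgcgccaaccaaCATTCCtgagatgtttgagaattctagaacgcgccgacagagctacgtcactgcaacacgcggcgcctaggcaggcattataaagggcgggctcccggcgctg
Tnxb: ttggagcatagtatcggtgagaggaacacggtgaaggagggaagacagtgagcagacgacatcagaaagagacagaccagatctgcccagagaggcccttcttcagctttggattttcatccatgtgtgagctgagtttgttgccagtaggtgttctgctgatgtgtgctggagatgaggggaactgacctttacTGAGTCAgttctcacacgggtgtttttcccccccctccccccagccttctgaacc

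4 motifs were searched on both strands, all bound by factors known to act on matricellular genes. The TEAD motif GGAATG is the binding sequence of the partners of YAP and was found in 12.6% of 32851 promoter windows of the same length. *Thbs4* held 2 overlapping matches to it, at 187 to 192 and 192 to 197 bases before the start, and *Ccn1* held 1, at 98 to 103 bases. The AP-1 motif TGANTCA, the site of FOS and JUN dimers, was in 6.75% of all windows and matched in *Tnxb*, as TGAGTCA at 49 to 55 bases. The CArG box of SRF (1.47% of windows) and the palindromic SMAD element GTCTAGAC (0.167% of windows) had no match in the 10 windows that covered 8 of the 10 genes, and the *Tnc* windows held none of the 4 motifs. No window was given for *Thbs1* and *Ccn2*. A match describes the letters of the window and is no evidence of binding.

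Per kilobase of exon, *Sparc* had the highest level of the 10 genes in every population. Its fitted level per kilobase was 40813 normalised counts in DPP4+ cells, 24714 in ICAM1+ cells and 38289 in CD142+ cells, which was 66.8%, 52.1% and 63.8% of the 10 genes' summed level per kilobase. *Postn* had 6509, 8369 and 6045 per kilobase in the same order of populations, below *Thbs1* in CD142+ cells and above the other 8 genes in DPP4+ and ICAM1+ cells. *Thbs1*, *Tnxb* and *Ccn1* lay between 2572 and 6637 per kilobase in every population. The remaining 5 genes were lower: *Thbs2*, *Thbs3*, *Thbs4* and *Ccn2* lay between 146.1 and 1227 per kilobase, and *Tnc* between 44.35 and 230. By mean level per kilobase over all libraries *Sparc* ranked 8 among all genes, *Postn* 32, *Thbs1* 45, *Tnxb* 86 and *Ccn1* 93, while *Thbs2* ranked 327, *Thbs3* 329, *Thbs4* 538, *Ccn2* 1205 and *Tnc* 2667. The summed level per kilobase of the 10 genes was 61121 in DPP4+ cells, 47438 in ICAM1+ cells and 60051 in CD142+ cells. As a share of the summed level per kilobase of all genes, however, they held 1.51%, 1.57% and 2.04% in the same order, and without the division by length 3.12%, 3.16% and 3.22%, so that ICAM1+ cells were lowest only on the scale of normalised counts. The level of *Sparc* differed between ICAM1+ cells and either other population by more than these sums did.

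**Figure D1:**
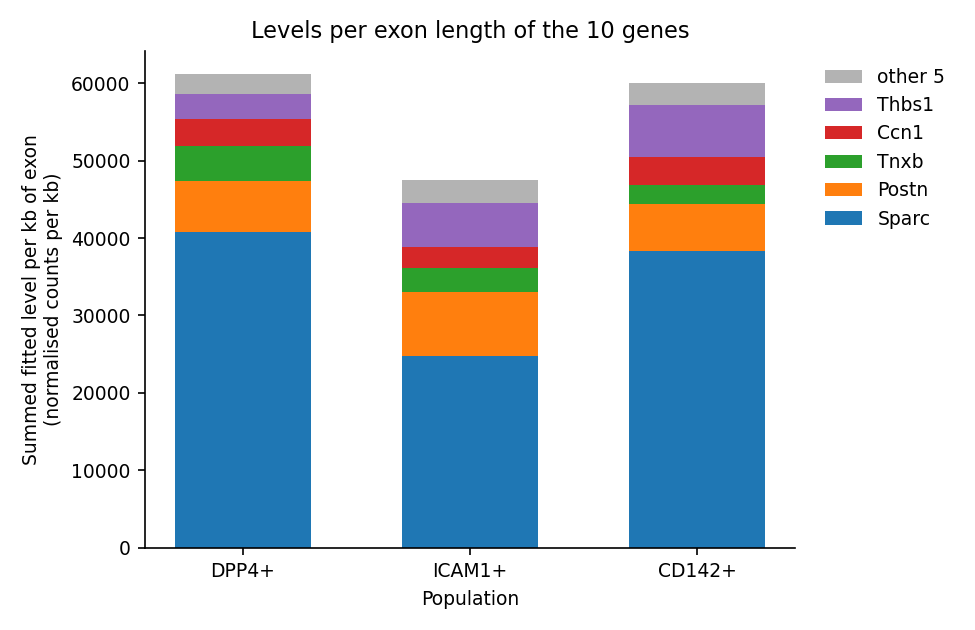
Fitted level per kilobase of exon, in normalised counts per kilobase, summed over the 10 genes in each population, with the 5 highest genes in colour and the other 5 in grey. The ICAM1+ bar is the lowest, at a sum of 47438 normalised counts per kilobase, where the *Sparc* segment is shorter than in the other bars and the *Postn* segment taller. As a share of all genes per kilobase the 10 genes were not lowest in ICAM1+ cells (1.57%, against 1.51% in DPP4+ cells).

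In 9 of the 10 genes, 1 population stood apart from both others by the deposited Wald test at an adjusted p below 0.05, and the remaining pair of populations did not pass. Each of the 3 populations was the one apart for some of them. *Thbs1* and *Thbs2* were lower in DPP4+ cells than in both others (7.34% of 17450 tested genes were), and *Tnxb* was higher there (7.13%). *Tnc* and *Postn* were higher in ICAM1+ cells than in both others (2.75% of 15848 tested genes), and *Thbs3* and *Sparc* were lower there (2.79%). *Ccn2* was higher in CD142+ cells than in both others (2.13%), and *Thbs4* was lower there (0.568%). *Ccn1* passed in no comparison. These background shares include many genes of low level, where the test has less power: of the 2661 genes with a mean of at least 500, a limit chosen after the data were seen, 41.6% stood apart in some population and 32.5% passed in exactly 2 of the 3 comparisons.

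**Figure D2:**
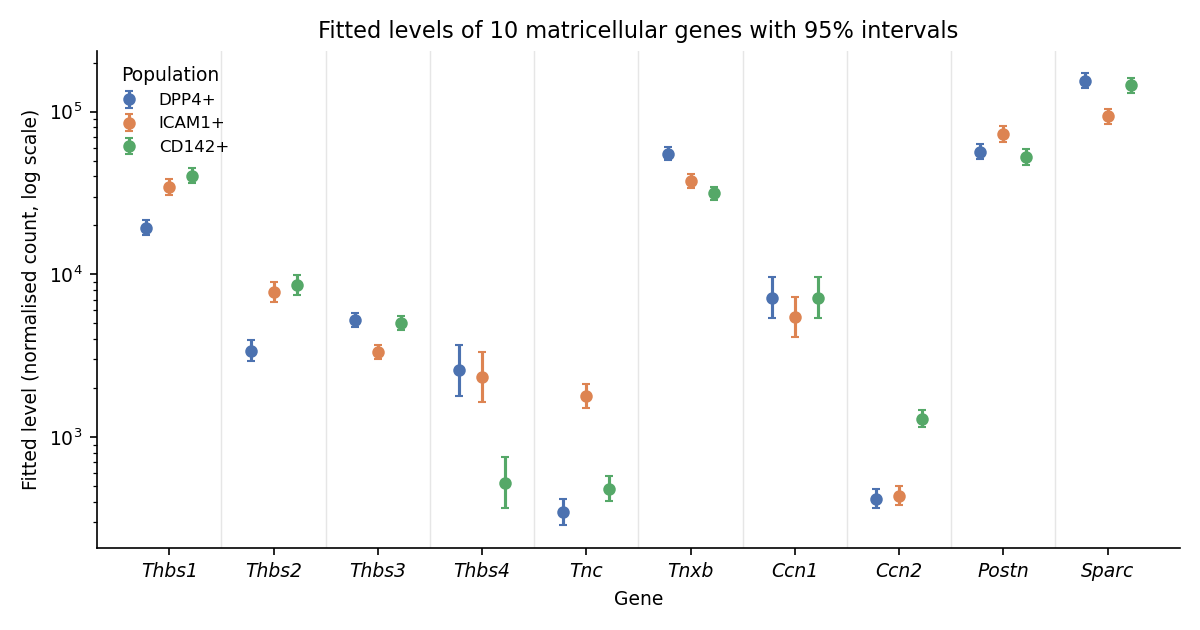
Fitted level of each gene in DPP4+, ICAM1+ and CD142+ cells, in normalised counts on a log scale, with bars for the 95% interval (3 libraries each). For 9 of the genes 1 population lies apart from the other pair, as for *Tnc* in ICAM1+ cells (1788 against 344.7 and 480.3) and *Ccn2* in CD142+ cells (1300 against 417.9 and 435.4), while the intervals of *Ccn1* overlap. Levels of different genes are not corrected for length here.

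By comparison, 4 of the 10 genes were higher and 3 lower in ICAM1+ than in DPP4+ cells, against 12.4% and 12% of 17851 tested genes. In CD142+ against DPP4+ cells 3 were higher and 2 lower (10.1% and 8.91% of 17450 genes). In ICAM1+ against CD142+ cells 3 were higher and 3 lower (3.77% and 5.28% of 15848 genes). The genes did not move one way as a group: their median log2 fold changes were -0.04, -0.03 and -0.18, beside 0.02, -0.01 and -0.00 over all tested genes. Here and in what follows, 3 fold changes given together are those of ICAM1+ over DPP4+, of CD142+ over DPP4+ and of ICAM1+ over CD142+, in this order. The comparisons share libraries, so the counts are not independent of each other.

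**Figure D3:**
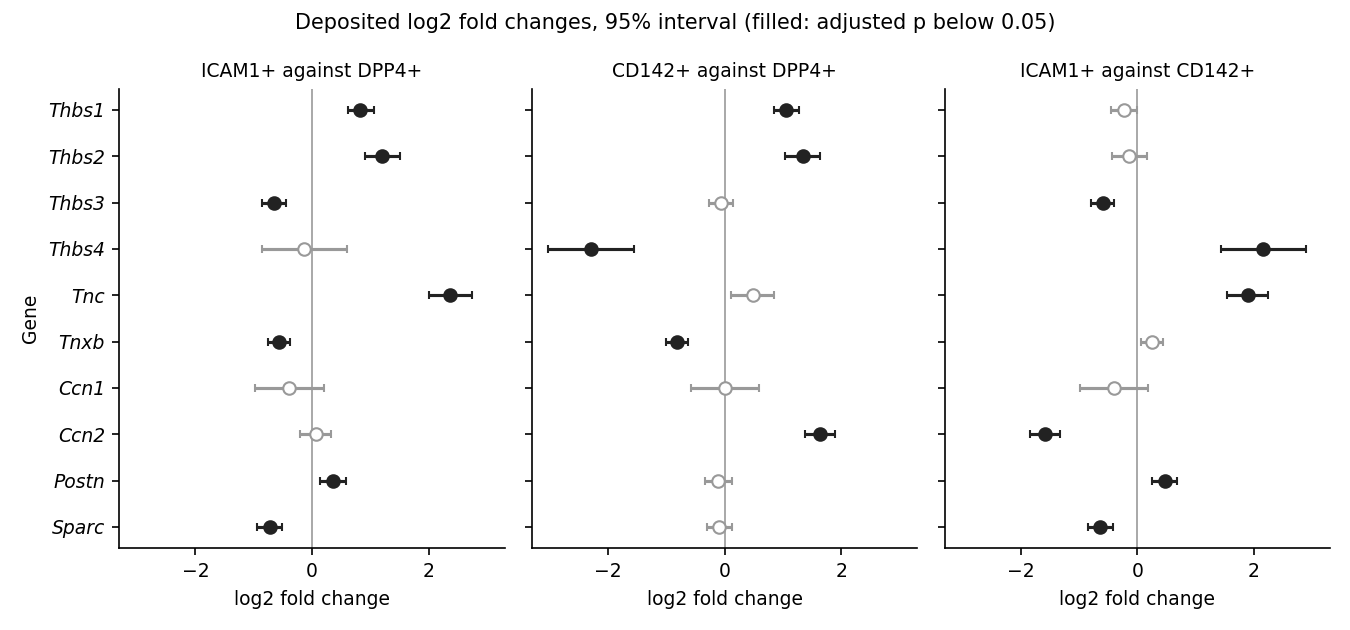
Deposited log2 fold change of each gene in the 3 comparisons, with bars for the 95% interval and filled points for an adjusted p below 0.05. Positive values are higher in the first-named population. *Tnc* (2.37) and *Thbs4* (-2.29) have the widest departures from 0, and the intervals of *Thbs4* and *Ccn1* are the broadest, with standard errors of 0.37 and 0.30.

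The 4 thrombospondins followed 3 different patterns. *Thbs1* encodes thrombospondin 1, a trimeric activator of latent TGFb and inhibitor of angiogenesis, and lies at chr2:118111876-118127133 (plus strand, GRCm38). Its fitted level was 19320 normalised counts in DPP4+ cells (95% interval 17311 to 21562), 34450 in ICAM1+ cells (30876 to 38438) and 40305 in CD142+ cells (36127 to 44965). DPP4+ cells thus had the low level, and the intervals of the other populations overlapped. The level was 1.78-fold higher in ICAM1+ than in DPP4+ cells (95% interval 1.53 to 2.08, adjusted p = 6.71e-12) and 2.09-fold higher in CD142+ than in DPP4+ cells (1.79 to 2.44, adjusted p = 6.95e-19). The log2 difference of ICAM1+ from CD142+ cells was -0.23 ± 0.11 and did not pass after adjustment (adjusted p = 0.263, unadjusted p = 0.0469).

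*Thbs2* encodes thrombospondin 2, the other trimeric member, whose loss in mice is known to disturb collagen fibrils. It lies at chr17:14665500-14694235 (minus strand). Its levels were 3393 in DPP4+ cells (2928 to 3931), 7796 in ICAM1+ cells (6733 to 9027) and 8593 in CD142+ cells (7423 to 9949), again with DPP4+ cells low. The level was 2.3-fold higher in ICAM1+ than in DPP4+ cells (1.87 to 2.83, adjusted p = 1.23e-13) and 2.53-fold higher in CD142+ than in DPP4+ cells (2.06 to 3.12, adjusted p = 7.65e-17). ICAM1+ and CD142+ cells differed by -0.14 ± 0.15 (adjusted p = 0.736), an interval of -0.44 to 0.16 on the log2 scale. Over the 3 log2 fold changes *Thbs1* and *Thbs2* lay at a Euclidean distance of 0.47, the smallest between any 2 thrombospondins.

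*Thbs3* encodes a pentameric thrombospondin of skeletal and connective tissue and lies at chr3:89215180-89226837 (plus strand). Its levels were 5222 in DPP4+ cells (4722 to 5774), 3328 in ICAM1+ cells (3007 to 3682) and 5016 in CD142+ cells (4537 to 5546), so that ICAM1+ cells were low and the others overlapped. DPP4+ cells had 1.57-fold the level of ICAM1+ cells (1.36 to 1.81, adjusted p = 1.09e-08) and CD142+ cells had 1.51-fold (1.31 to 1.74, adjusted p = 9.56e-07). The difference of CD142+ from DPP4+ cells was -0.06 ± 0.10 on the log2 scale (adjusted p = 0.811). *Thbs3* shares 6.59% of its exon bases with *Mtx1*, a mitochondrial import gene on the other strand. *Mtx1* had log2 fold changes of -0.57 ± 0.13, -0.16 ± 0.12 and -0.41 ± 0.13 in the 3 comparisons. The sources used here do not give the strand setting of the counting, so reads of genes that overlap on opposite strands may not be told apart.

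*Thbs4* encodes the pentameric thrombospondin 4, best known from tendon, muscle and heart, and lies at chr13:92751590-92794818 (minus strand). Its levels were 2567 in DPP4+ cells (1797 to 3667), 2345 in ICAM1+ cells (1642 to 3351) and 523.3 in CD142+ cells (365.3 to 749.6). CD142+ cells were low, and the other intervals overlapped almost completely. The level was 4.91-fold higher in DPP4+ than in CD142+ cells (2.96 to 8.14, adjusted p = 1.52e-08) and 4.48-fold higher in ICAM1+ than in CD142+ cells (2.7 to 7.44, adjusted p = 3.98e-07). ICAM1+ and DPP4+ cells differed by -0.13 ± 0.37 (adjusted p = 0.861), with an interval of -0.86 to 0.60 that allows a change of either sign. The standard errors of this gene were wide: the coefficient of variation between libraries that they imply was 31.5%. Over genes whose mean was 500 or more the median was 10.6%, with a 5th to 95th percentile range of 8.9% to 14%. Among the other tendon and fascia genes listed, *Scx*, *Mkx*, *Tnmd*, *Comp* and *Chad* had means below 10, and the 10 genes of that list apart from *Thbs4* and *Tnc* summed to 2379 in DPP4+ cells, 2967 in ICAM1+ cells and 2294 in CD142+ cells. Their part in the *Thbs4* difference was not tested.

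The genes with the log2 fold changes nearest to those of *Thbs4*, out of 7951 others with a mean of at least 100, were *Slco2a1*, *Ret* and *Fgfr2*. *Slco2a1*, a prostaglandin transporter, lay at a Euclidean distance of 0.46 over the 3 comparisons, with a log2 fold change of -2.10 ± 0.17 in CD142+ against DPP4+ cells. *Ret*, the receptor tyrosine kinase of the GDNF ligands, lay at 0.93, with -1.57 ± 0.20. *Fgfr2*, a fibroblast growth factor receptor, lay at 1.42, with -1.16 ± 0.25.

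The 2 tenascins differed in opposite ways. *Tnc* encodes tenascin-C, a hexameric glycoprotein of developing, wounded and mechanically loaded tissue, and lies at chr4:63959785-64047015 (minus strand). Its levels were 344.7 in DPP4+ cells (287.3 to 413.6), 1788 in ICAM1+ cells (1505 to 2124) and 480.3 in CD142+ cells (402.4 to 573.4). ICAM1+ cells were high, with an interval far from those of the others, which overlapped slightly. The level was 5.19-fold higher in ICAM1+ than in DPP4+ cells (4.04 to 6.66, adjusted p = 6.68e-36) and 3.72-fold higher than in CD142+ cells (2.91 to 4.76, adjusted p = 7.53e-23). The difference of CD142+ from DPP4+ cells was 0.48 ± 0.19 and lay at the threshold (adjusted p = 0.0543). When the p-values were adjusted only over genes whose mean was 100 or more it passed, at an adjusted p of 0.0363.

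Many markers of other cells were also higher in ICAM1+ cells, where *Tnc* was high. Of 13 mural cell markers, genes of pericytes and vascular smooth muscle, 8 were higher and 1 lower in ICAM1+ than in DPP4+ cells. Against CD142+ cells, 8 were higher and 2 lower in ICAM1+ cells. In CD142+ against DPP4+ cells, where *Tnc* did not pass, 7 of the 13 were higher and 0 lower. The summed level of all 13 was 3795 in DPP4+ cells, 13425 in ICAM1+ cells and 8512 in CD142+ cells. These were 0.0388%, 0.164% and 0.0937% of the level of all genes. *Notch3* (3.36 ± 0.14), *Acta2* (2.89 ± 0.20), *Myh11* (2.53 ± 0.34) and *Rgs5* (2.18 ± 0.19) had the largest log2 fold changes in ICAM1+ against DPP4+ cells among the higher mural markers whose mean was 100 or more, while *Kcnj8* was lower (-2.06 ± 0.24). No mural marker was at 0, and *Higd1b* had a mean below 10. Of the 13 mural markers, *Acta2* and *Tagln* are also TGFb targets, *Pdgfrb* is also a stromal marker and *Des* also a muscle marker. Of 12 Schwann cell markers 8 were higher and 1 lower in ICAM1+ cells in both comparisons with the other populations. In CD142+ against DPP4+ cells 2 were higher and 0 lower. The summed levels of the 12 were 3796, 5229 and 4038 in DPP4+, ICAM1+ and CD142+ cells. *Pmp22* alone held 2067, 1635 and 2479 of these sums. *Ngfr* (1.90 ± 0.21) was among the higher and *Pmp22* (-0.34 ± 0.12) was the lower one in ICAM1+ against DPP4+ cells. The part of these cells in the *Tnc* difference was not tested.

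The genes nearest to *Tnc* over the 3 log2 fold changes were *Gm48529* (distance 0.20), *Myh11* (0.20), the myosin heavy chain of smooth muscle, and *Tagln* (0.34), an actin-binding protein of smooth muscle. *Tagln* had log2 fold changes of 2.10 ± 0.20, 0.33 ± 0.21 and 1.77 ± 0.20 in the 3 comparisons, and *Gm48529* had 2.26 ± 0.21, 0.51 ± 0.21 and 1.74 ± 0.20. *Tnc* shares 2.26% of its exon bases with *8030451A03Rik* on the other strand, which had a mean of 55.66 and log2 fold changes of 2.31 ± 0.38, 0.21 ± 0.41 and 2.10 ± 0.37.

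*Tnxb* encodes tenascin-X, which binds collagen fibrils and is lost in a form of Ehlers-Danlos syndrome. It lies at chr17:34670535-34719815 (plus strand). Its levels were 55198 in DPP4+ cells (50277 to 60600), 37466 in ICAM1+ cells (34123 to 41136) and 31397 in CD142+ cells (28596 to 34473), so DPP4+ cells were high and the other intervals overlapped narrowly. The level was 1.47-fold higher in DPP4+ than in ICAM1+ cells (1.29 to 1.68, adjusted p = 1.38e-07) and 1.76-fold higher than in CD142+ cells (1.54 to 2.01, adjusted p = 2.21e-15). ICAM1+ and CD142+ cells differed by 0.25 ± 0.10, which did not pass after adjustment (adjusted p = 0.0814, unadjusted p = 0.00878). The implied coefficient of variation of *Tnxb* was 8.24%, the lowest of the 10 genes. *Tnxb* held 7.4% of the 10 genes' level per kilobase in DPP4+ cells, whereas *Tnc* held 0.0726%, and in ICAM1+ cells the shares were 6.47% and 0.485%.

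The 2 CCN genes also differed from each other. *Ccn2* encodes connective tissue growth factor, a matrix protein that TGFb and YAP are known to induce, and lies at chr10:24595442-24598683 (plus strand). Its levels were 417.9 in DPP4+ cells (365.9 to 477.3), 435.4 in ICAM1+ cells (381.5 to 497) and 1300 in CD142+ cells (1152 to 1467). CD142+ cells were high and the others overlapped. The level in CD142+ cells was 3.11-fold that in DPP4+ cells (2.6 to 3.72, adjusted p = 3.24e-33) and 2.99-fold that in ICAM1+ cells (2.5 to 3.57, adjusted p = 4.82e-30). ICAM1+ and DPP4+ cells differed by 0.06 ± 0.14 (adjusted p = 0.823). *Ccn2* shares 23.2% of its exon bases with *Gm15270* on the other strand, which had a mean of 320.2 and moved with it: its log2 fold changes were 0.14 ± 0.18 in ICAM1+ against DPP4+, 1.84 ± 0.17 in CD142+ against DPP4+ and -1.71 ± 0.17 in ICAM1+ against CD142+ cells, beside 0.06 ± 0.14, 1.64 ± 0.13 and -1.58 ± 0.13 for *Ccn2*. The reads of this pair may not be told apart.

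*Ccn1* encodes CYR61, an immediate early product of growth factors and mechanical load, and lies at chr3:145646976-145649981 (minus strand). Its levels were 7184 in DPP4+ cells (5391 to 9572), 5481 in ICAM1+ cells (4113 to 7304) and 7201 in CD142+ cells (5405 to 9595), and all 3 intervals overlapped. The log2 fold changes were -0.39 ± 0.30 in ICAM1+ against DPP4+ cells (adjusted p = 0.392), 0.00 ± 0.30 in CD142+ against DPP4+ cells (adjusted p = 0.997) and -0.39 ± 0.30 in ICAM1+ against CD142+ cells (adjusted p = 0.557). Their intervals, of -0.98 to 0.20, -0.58 to 0.59 and -0.98 to 0.19, do not show that the populations were alike. The implied coefficient of variation between libraries was 25.3%, above the 95th percentile of 14% for genes whose mean was 500 or more. A log2 difference the size of that of *Sparc* would lie inside the interval of *Ccn1* in both comparisons with ICAM1+ cells.

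Immediate early genes, which tissue digestion is known to induce, were measured beside *Ccn1*, *Ccn2* and *Thbs1*. The list also held the heat shock genes *Hspa1a* and *Hspa1b*. Of 21 listed, 15 were higher and 3 lower in CD142+ than in DPP4+ cells, 9 higher and 4 lower in ICAM1+ than in DPP4+ cells, and none higher and 7 lower in ICAM1+ than CD142+ cells (0 higher and 10 lower at an unadjusted p below 0.05, DESeq2). The summed level of the 21 was 128755 in DPP4+ cells, 170930 in ICAM1+ cells and 213245 in CD142+ cells. These were 1.32%, 2.08% and 2.35% of the level of all genes. Of the sums, *Hspa1a* held 7245, 11631 and 17434 and *Hspa1b* held 9083, 16276 and 25038, in the same order. Among the 21 listed, *Egr2* (1.95 ± 0.15), *Nr4a1* (1.66 ± 0.13), *Hspa1b* (1.46 ± 0.17) and *Btg2* (1.31 ± 0.11) had the largest log2 fold changes in CD142+ against DPP4+ cells. Their part in the levels of *Ccn2* and *Thbs1* was not tested. *Thbs1*, also a platelet protein, shares 3.42% of its exon bases with *Gm29233* on the other strand, which had log2 fold changes of 0.70 ± 0.13, 0.96 ± 0.13 and -0.25 ± 0.13. The 4 platelet and megakaryocyte markers in the tables, of 8 listed, summed to 107.6 in DPP4+ cells, 189.9 in ICAM1+ cells and 129.7 in CD142+ cells, with *Pf4* and *Gp9* at means below 10.

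**Figure D4:**
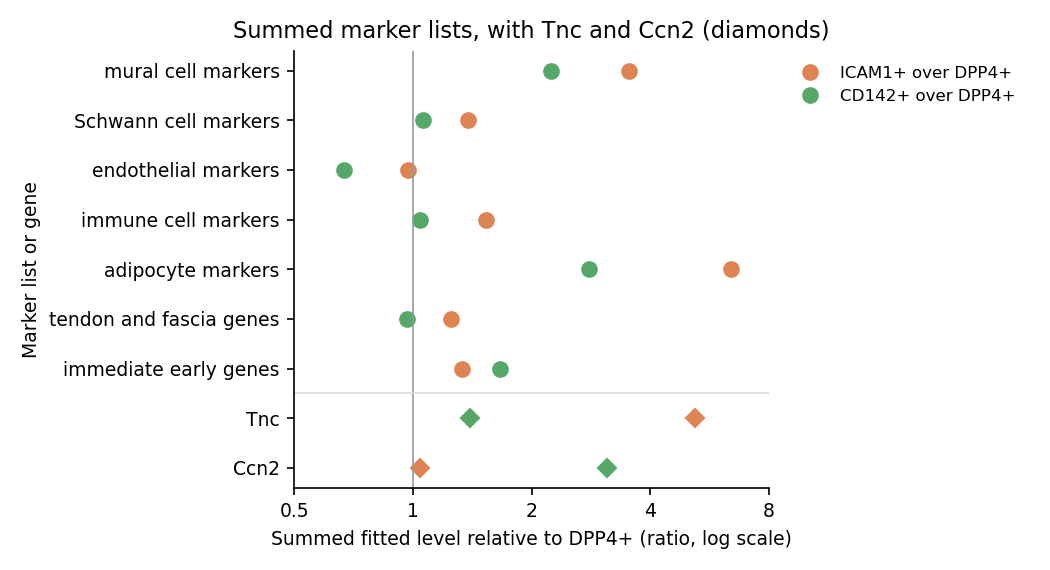
Summed fitted level of each marker list (circles) and level of *Tnc* and *Ccn2* (diamonds) in ICAM1+ and CD142+ cells relative to DPP4+ cells, as ratios on a log scale. The mural list lies at 3.54 in ICAM1+ and 2.24 in CD142+ cells. The immediate early list, which includes *Hspa1a* and *Hspa1b*, lies at 1.33 and 1.66. The adipocyte list reaches 6.41 in ICAM1+ cells, while *Tnc* lies at 5.19 in ICAM1+ cells and *Ccn2* at 3.11 in CD142+ cells.

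*Postn* and *Sparc*, the 2 genes of the 10 with the highest mean level per kilobase, departed from the others in ICAM1+ cells in opposite directions. *Postn* encodes periostin, a collagen-associated protein of fibroblasts, and lies at chr3:54361109-54391037 (plus strand). Its levels were 56644 in DPP4+ cells (50787 to 63176), 72827 in ICAM1+ cells (65299 to 81223) and 52603 in CD142+ cells (47165 to 58668). ICAM1+ cells were high and the others overlapped. The differences were the smallest of those that passed: 1.29-fold higher in ICAM1+ than in DPP4+ cells (1.1 to 1.5, adjusted p = 0.00808) and 1.38-fold higher than in CD142+ cells (1.19 to 1.62, adjusted p = 0.000917). CD142+ and DPP4+ cells differed by -0.11 ± 0.11 on the log2 scale (adjusted p = 0.634).

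*Sparc* encodes SPARC, also called osteonectin, and lies at chr11:55394500-55423183 (minus strand). Its levels were 154600 in DPP4+ cells (139290 to 171592), 93618 in ICAM1+ cells (84344 to 103910) and 145037 in CD142+ cells (130675 to 160978), so ICAM1+ cells were low and the others overlapped. DPP4+ cells had 1.65-fold the level of ICAM1+ cells (1.42 to 1.91, adjusted p = 5.49e-10) and CD142+ cells had 1.55-fold (1.34 to 1.8, adjusted p = 3.72e-07). CD142+ and DPP4+ cells differed by -0.09 ± 0.11 on the log2 scale (adjusted p = 0.677). Over the 3 log2 fold changes *Sparc* lay nearest to *Thbs3*, at a distance of 0.09, the smallest among all pairs of the 10 genes, although its level per kilobase was far higher. The collagen genes whose products SPARC binds had values of the same sign: *Col1a1* was at -0.73 ± 0.10 in ICAM1+ against DPP4+ cells and -0.81 ± 0.10 in ICAM1+ against CD142+ cells, and *Col1a2* at -0.72 ± 0.10 and -0.85 ± 0.10.

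Among 16 relatives of these genes, 7 were higher and 3 lower in ICAM1+ than in DPP4+ cells and 7 were higher and 3 lower in CD142+ than in DPP4+ cells. In ICAM1+ against CD142+ cells 2 were higher and 5 lower of the 13 that were tested. *Ccn3* (NOV), a CCN protein known for restraining proliferation, had the largest change in ICAM1+ against DPP4+ cells among the relatives whose mean was 100 or more: its level was 4277 in DPP4+ cells, 366.7 in ICAM1+ cells and 1251 in CD142+ cells, with log2 fold changes of -3.54 ± 0.13 and -1.77 ± 0.12 against DPP4+ cells. *Ccn4* (WISP1), a target of WNT signalling, ran the other way, at 56.87, 140.2 and 399 in DPP4+, ICAM1+ and CD142+ cells. Of the 4 CCN genes with a mean of at least 100, *Ccn1* thus passed in no comparison, *Ccn2* and *Ccn4* were highest in CD142+ cells, and *Ccn3* was highest in DPP4+ cells.

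The SPARC relatives were split as well. *Fstl1*, a secreted glycoprotein with a follistatin domain, was at 78444 in DPP4+ cells, 28230 in ICAM1+ cells and 40006 in CD142+ cells, with log2 fold changes of -1.47 ± 0.10 and -0.97 ± 0.10 against DPP4+ cells. *Sparcl1* (hevin), the closest relative of SPARC, was at 975.7, 3936 and 2975, with 2.01 ± 0.13 in ICAM1+ and 1.61 ± 0.13 in CD142+ against DPP4+ cells. *Spock2*, a testican proteoglycan, was at 125.3, 293.9 and 945.9, with 2.92 ± 0.17 in CD142+ against DPP4+ cells. *Tgfbi*, the relative of periostin, was at 3130, 4298 and 6528 and had a log2 fold change of -0.60 ± 0.12 in ICAM1+ against CD142+ cells, where that of *Postn* was 0.47 ± 0.11. *Comp*, the fifth thrombospondin, and the tenascins *Tnr* and *Tnn* had means of at most 5.439 and passed in no comparison. *Smoc1* and *Spock3*, with means of 76.31 and 76.85, were picked after their values were seen: *Smoc1* was at 6.61 in DPP4+, 184.5 in ICAM1+ and 37.82 in CD142+ cells, and *Spock3* at 210.4, 6.737 and 13.46.

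Receptors of matricellular proteins were also divided. Of the 24 that the tables held, 23 were tested in each comparison, and 9 were higher and 8 lower in ICAM1+ than in DPP4+ cells, 6 higher and 6 lower in CD142+ than in DPP4+ cells, and 7 higher and 2 lower in ICAM1+ than CD142+ cells. *Cd36*, a thrombospondin receptor and fatty acid transporter, was at 806.1 in DPP4+ cells, 3099 in ICAM1+ cells and 1453 in CD142+ cells, and was 1.94 ± 0.18 higher on the log2 scale in ICAM1+ than in DPP4+ cells. *Cd47*, another receptor of thrombospondin 1, was lower there (-0.86 ± 0.12). The heparan sulphate proteoglycan *Sdc1* (2.33 ± 0.21) and the collagen-binding integrin subunit *Itga1* (2.27 ± 0.18) were higher in ICAM1+ than in DPP4+ cells. The integrin subunits *Itgb5* (-1.45 ± 0.11) and *Itgb3* (-1.38 ± 0.14), partners of the alpha v chain in binding periostin and CCN proteins, were lower there. *Vldlr*, a receptor of thrombospondin 1 of the lipoprotein receptor family, was lower in ICAM1+ than CD142+ cells (-1.08 ± 0.15). *Itgb1*, the common partner of many integrins, did not pass in any comparison, with log2 fold changes of -0.07 ± 0.10, -0.03 ± 0.10 and -0.04 ± 0.10. *Cd47* and *Itgb1* fall outside the naming rule and were picked after their values were seen.

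**Figure D5:**
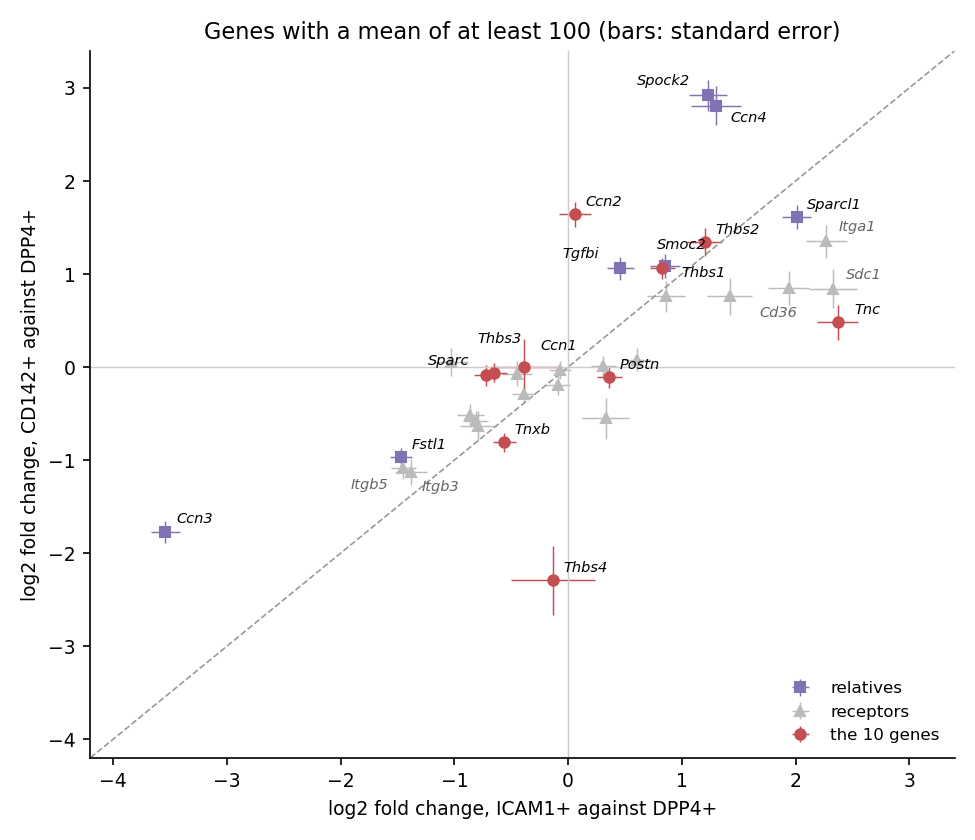
Log2 fold change in ICAM1+ against DPP4+ cells (x axis) and in CD142+ against DPP4+ cells (y axis) for the 10 genes, their relatives and the receptors with a mean of at least 100, with bars for the standard error and a dashed line where both are equal. *Ccn2* and *Thbs4* lie near 0 on the x axis and far from it on the y axis, and *Tnc* lies far out on the x axis at 0.48 on the y axis. Both axes share the DPP4+ libraries, so points are drawn toward the line by that alone.

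Other targets of the pathways known to induce *Ccn1*, *Ccn2* and *Thbs1* were found on both sides. Of 20 other YAP and TEAD targets, 3 were higher and 7 lower in ICAM1+ than in DPP4+ cells, 5 higher and 7 lower in CD142+ than in DPP4+ cells, and none higher and 3 lower in ICAM1+ than CD142+ cells (3 higher and 6 lower at an unadjusted p below 0.05, DESeq2). Their medians were -0.37, -0.29 and 0.03. *F3*, whose product was used to sort the cells, is counted among the 5 higher in CD142+ than in DPP4+ cells. It is also among the 3 lower in ICAM1+ than CD142+ cells, and the sort favours both calls. The receptor tyrosine kinase *Axl* (-1.73 ± 0.09), the growth factor gene *Tgfb2* (-1.29 ± 0.21) and *Igfbp3* (-1.15 ± 0.33) were lower in CD142+ than in DPP4+ cells. *Amotl2*, a feedback regulator of the pathway, was lower in ICAM1+ than CD142+ cells (-0.55 ± 0.18).

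Of 15 TGFb targets 5 were higher and 6 lower in ICAM1+ than in DPP4+ cells (12.4% and 12% of all tested genes). In CD142+ against DPP4+ cells 7 were higher and 1 lower (10.1% and 8.91%). Of the 14 tested in ICAM1+ against CD142+ cells 2 were higher and 8 lower (3.77% and 5.28%). The medians were -0.13, 0.39 and -0.49. In CD142+ against DPP4+ cells, where *Ccn2* was higher, *Tgfbi* was at 1.06 ± 0.12 and *Acta2* at 1.07 ± 0.20, whereas fibronectin, *Fn1*, was at -1.47 ± 0.12. In ICAM1+ against CD142+ cells elastin, *Eln* (-1.48 ± 0.13), and the TGFb feedback gene *Pmepa1* (-0.99 ± 0.12) were lower, with *Acta2* (1.81 ± 0.19) and *Tagln* (1.77 ± 0.20) higher. *Acta2* and *Tagln* are also mural cell markers, and *Tgfbi* is also among the relatives.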

How the data were processed

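Bulk mRNA of 9 libraries, 3 each of sorted DPP4+, ICAM1+ and CD142+ cells, was grouped by the population that the labels give. STAR 2.5.2a, mm10, DESeq2 and R 3.5.1 are named in the submitters' processing notes. The sources used here do not give the annotation, the strand setting or the depth of each library. Deposited by the authors were 3 tables of 20659 rows, each a pairwise DESeq2 comparison. The mean is a signal, counts divided by size factors and averaged by the authors over all libraries. Each log2 fold change and its standard error is deposited as fitted by the authors. The Wald statistic is a deposited score, and p-values with their Benjamini-Hochberg adjusted values are deposited too. 4 rows that name no gene held 59.6% of the summed mean and were set aside here, though they were in the authors' fit. This left 20655 genes with a summed mean of 9024647, of which 20618 matched a symbol.

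Because these columns are all that was used, the deposited Wald test with an adjusted p below 0.05 is the test reported. From the mean and 2 fold changes a fitted level was computed for each population, and from the 3 standard errors its own error, a 95% interval and the implied coefficient of variation between libraries, which takes size factors near 1. The formulas were checked on made-up values that met their assumptions, so the check does not test those assumptions in these libraries. The 3 fold changes added up within 0.01 on 20612 genes. Levels per kilobase used the merged exons of the GENCODE M21 annotation (GRCm38, the mm10 assembly). That the authors counted on these exons was not checked. Intervals rest on the deposited standard errors, which come from a joint fit of all libraries by the authors. They therefore do not show the spread of the 3 libraries of each population by itself. Calculations used Python 3.11.15, pandas 2.3.3 and scipy 1.17.1, and plots matplotlib 3.10.9.

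The 10 genes, the lists and the alternatives were chosen with earlier results of these data known. Named genes were all 10 genes in every comparison, the sort genes, up to 4 called genes with the largest fold change among those of mean 100 or more in each described list (else the 2 with the highest mean), and the 3 nearest genes of those differing at least 4-fold. Alternatives were other adjustments, thresholds of 0.01 and 0.1, a minimum log2 fold change of 1, and re-centring. Some genes that this rule names are not reported here.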

Additional observations from a re-analysis of the deposited data

How the results depend on the processing

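No paired analysis was possible because the tables hold no values per library, and for the same reason no replicate could be left out in turn. The alternatives could not reverse a difference that passed, so their directions are no check. Only re-centring alters the log2 fold changes. Its shifts lay between -0.24 and 0.03, and the smallest difference that passed was 0.36 (*Postn*, ICAM1+ against DPP4+). Of the 30 single values (10 genes in 3 comparisons) 18 passed in the deposited test, and all 30 kept their side of the threshold when p-values were adjusted over every gene or at a threshold of 0.01. Adjusting over genes whose mean was 10 or more (adjusted p = 0.046) or 100 or more (adjusted p = 0.0363), a threshold of 0.1, and re-centring on the median of genes of mean 100 or more (adjusted p = 0.0318) or of the ribosomal protein genes (adjusted p = 0.00119) each added *Tnc* in CD142+ against DPP4+ cells. The threshold of 0.1 also added *Tnxb* in ICAM1+ against CD142+ cells. The ribosomal protein genes lay at medians of -0.21, -0.24 and 0.03 on the log2 scale, in the order of comparisons given above.

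A minimum log2 fold change lowered the counts by construction, and the share of all tested genes stands in brackets. With an absolute log2 fold change of at least 1, ICAM1+ over DPP4+ gave 2 higher (7.09%) and 0 lower genes (4.92%), CD142+ over DPP4+ 3 higher (5.83%) and 1 lower (4.03%), and ICAM1+ over CD142+ 2 higher (1.58%) and 1 lower (1.92%). 4 genes (*Thbs2*, *Thbs4*, *Tnc*, *Ccn2*) still had 1 population apart from both others (9.72%), and *Thbs1*, *Thbs3*, *Tnxb*, *Postn* and *Sparc* did not. Tested against a log2 fold change of 1 over all genes, the counts were 1 higher (1.6%) and 0 lower (1.7%), 1 higher (1.47%) and 1 lower (1.19%), and 1 higher (0.0581%) and 1 lower (0.261%) in the same order, and 2 genes had 1 population apart (1.97%). With 3 libraries per population and no value of each, a single deviating library could not be seen.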

Other observations

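Adipocyte markers were at low levels in all populations and highest in ICAM1+ cells. Their 10 genes summed to 91.8 normalised counts in DPP4+ cells, 588.8 in ICAM1+ cells and 257.1 in CD142+ cells, less than 0.01% of the level of all genes in each. Of 8 tested, 6 were higher and none lower in ICAM1+ than in DPP4+ cells (7 higher and 0 lower at an unadjusted p below 0.05, DESeq2). *Plin4*, a lipid droplet protein, had fitted levels of 16.85 in DPP4+ cells, 190.6 in ICAM1+ cells and 56.42 in CD142+ cells. *Lipe*, the hormone-sensitive lipase, had a log2 fold change of 1.17 ± 0.27 in ICAM1+ against DPP4+ cells.

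Of 13 endothelial markers 8 were higher and 1 lower in ICAM1+ than in DPP4+ cells, 1 higher and 1 lower in CD142+ than in DPP4+ cells, and 7 higher and none lower in ICAM1+ than CD142+ cells (10 higher and 0 lower at an unadjusted p below 0.05). Their sum was 6592 in DPP4+ cells, 6381 in ICAM1+ cells and 4410 in CD142+ cells. *Tek* alone held 2733, 539 and 507.4 of it, and without *Tek*, left out after its values were seen, the other 12 summed to 3859, 5842 and 3903, which moved the ratio of ICAM1+ to DPP4+ cells from 0.968 to 1.51. *Tek* was at -2.34 ± 0.13 and -2.43 ± 0.13 in ICAM1+ and CD142+ against DPP4+ cells, and was the lower one in both, while *Plvap* (1.01 ± 0.18) and *Vwf* (0.82 ± 0.16) were higher in ICAM1+ than in DPP4+ cells. The 15 immune cell markers in the tables summed to 316.3, 485.2 and 330.3 in DPP4+, ICAM1+ and CD142+ cells, and of the 12 tested none passed in ICAM1+ against DPP4+ cells by the DESeq2 Wald test (4 were higher and 0 lower at an unadjusted p below 0.05), with *Csf1r* at 0.67 ± 0.28 and *Cd3e* at 0.93 ± 0.41. The 11 skeletal muscle markers summed to 205, 282 and 186.4, and 1 of them was higher in ICAM1+ than in DPP4+ cells. Of the tendon and fascia genes 3 were higher and 1 lower of 11 tested in ICAM1+ against DPP4+ cells. *Tnc*, itself 1 of the 10 genes, is counted among the higher. The lower one was *Prg4*, at 357.7 in DPP4+ and 59.46 in ICAM1+ cells. *Fmod*, the collagen-binding proteoglycan fibromodulin, had the largest change of those with a mean of at least 100, at 2.91 ± 0.25, with 4.18 ± 0.25 in CD142+ against DPP4+ cells.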
